A study of Sus scrofa with 16 samples.

Results

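The response to raw potato starch (RPS) was compared between colonic mucosa and liver of pigs, to see which genes moved the same way in both tissues, which moved in opposite ways, and how far the effect in one tissue resembled the effect in the other. RPS is a starch that in part escapes digestion in the small intestine. The animals were Duroc × Landrace × Large White male pigs, 170 d old, which had eaten a corn and soybean diet with purified corn starch (CS) or with RPS in its place, at 230 g/kg of feed in the growing period and 280 g/kg in the finishing period. Each tissue and diet was measured on 4 one-colour Agilent porcine arrays, 1 pig per array and 16 arrays in all, so the groups were colon CS, colon RPS, liver CS and liver RPS. Of 43603 probes, 23412 gave a signal well above background on each of the 16 arrays, and every value given here comes from those probes unless stated. Of the 23412, 10521 carried a gene symbol, and these stood for 5044 distinct symbols of the 7210 on the array.

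Resistant starch is fermented by bacteria in the large intestine, and the short-chain fatty acids made there are taken up by the colonic mucosa or reach the liver through the portal vein. Colonic mucosa is an absorptive and barrier tissue, rich in epithelial and immune cells. The liver makes plasma proteins, bile acids and lipids, and clears what the portal blood brings. A gene used in both tissues can be read by the same array probe in each, so its diet effect can be set side by side, whereas its absolute level depends on the probe.

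The tissues matched their labels. Of 9 colon markers measured, 8 were higher in every colon array than in any liver array, the exception being MUC2, a gel-forming mucin, and all 8 liver markers measured were higher in every liver array. In the colon, replicate 3 of CS and replicate 2 of RPS had the lowest mean log2 level of 17 epithelial genes in their groups, at 12.85 and 13.41 against 14.34 to 14.99 for the other 6 arrays, and their deviations from their group means went together with r = 0.809. Counts are given with and without these arrays where they moved most. Before normalization the median scanner signal was 56.3 to 70.8 in colon CS and 34.2 to 42.5 in colon RPS, and 30.6 to 37.9 in the liver, with 61.1% to 72.2% of probes well above background. The part of this gap in the colon effects was not tested. Each group lay on a slide of its own, so slide and group cannot be told apart in either tissue. The labels do not say whether a replicate number stands for the same pig in both tissues. In whole tissue, fewer cells of a type and less RNA per cell cannot be told apart.

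The 2 diet effects were weakly alike. Over the 23412 probes, the log2 difference RPS minus CS in the colon and in the liver had a Pearson r of 0.169 and a Spearman rho of 0.151, with a jackknife standard error of 0.0850 for r over the 16 arrays. The sign was the same at 55.0% of probes. Of these, 6455 probes were higher with RPS in both tissues and 6414 were lower in both, while 5645 were higher in the colon and lower in the liver and 4898 the reverse. Leaving out 1 array at a time moved r between 0.127, without liver CS replicate 3, and 0.213, without liver RPS replicate 4. The probes share arrays, slides and labelling chemistry, and probes of 1 gene share its transcript, so r describes these 16 arrays. It was 0.125 over the 10521 probes with a symbol, 0.208 over the 12891 without one, and 0.113 over the 5044 genes at 1 probe each. With the probes cut into 5 equal bins it ran from 0.105 to 0.221 by signal and from 0.154 to 0.190 by GC content, so it was positive in each bin.

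**Figure D1:**
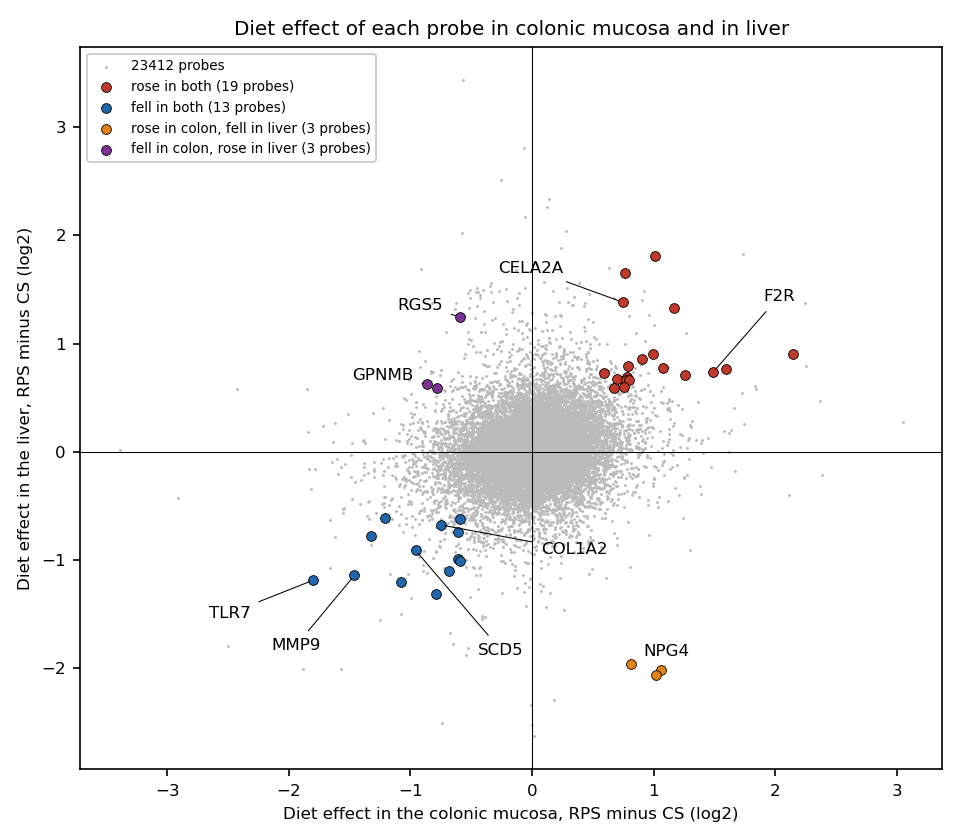
Each grey point is 1 of 23412 probes, with its diet effect in the colonic mucosa on the x axis and in the liver on the y axis, both RPS minus CS on the log2 scale. Coloured points passed unadjusted p under 0.05 and a fold above 1.5 in both tissues, 32 of them along the rising diagonal and 6 in the opposed quadrants, and the cloud as a whole has r = 0.169.

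The share of probes with the same sign was larger among large differences, which a positive r brings about by itself. Of the 197 probes with a difference above 1.5-fold in both tissues, whatever their p, 65 were higher in both, 91 were lower in both, 14 were higher in the colon and lower in the liver, and 27 the reverse, so that 79.2% had the same sign. At a fold above 2, 19 probes were left, and 17 of them had the same sign. In each tissue, a probe was said to have risen or fallen where limma's moderated test gave an unadjusted p under 0.05 and the fold was above 1.5. By that rule 519 probes changed in the colon, 2.22% of those tested (309 rose, 1.32%, and 210 fell, 0.897%), and 575 changed in the liver, 2.46% (289 rose, 1.23%, and 286 fell, 1.22%). Without colon RPS replicate 2 the colon count was 1431 (657 rose and 774 fell), without colon CS replicate 3 it was 684 (309 and 375), without both 1376 (591 and 785), so the larger share turned from higher to lower, and without liver RPS replicate 4 the liver count was 912. Of the 309 that rose in the colon, 217 (70.23%) were also higher with RPS in the liver, with a median liver effect of 0.15, and of the 210 that fell, 154 (73.3%) were lower there, with a median of -0.15. In the other direction, 192 of the 289 that rose in the liver (66.4%) were higher in the colon and 191 of the 286 that fell (66.8%) were lower. The effect in the second tissue was thus mostly small.

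After Benjamini-Hochberg adjustment over all 23412 probes, limma left 1 probe (0.00427%) under 0.05 in the colon, at an adjusted p of 0.0489, and none in the liver, where the smallest adjusted p was 0.110. With all 16 arrays in 1 fit the colon count was 21. It was 0 with scanner signals scaled to the 75th percentile or with any 1 colon array left out. Without liver CS replicate 3 the liver count was 1. An unadjusted p under 0.05 was found at 947 probes in the colon (4.04%) and at 1930 in the liver (8.24%). The named genes below are therefore described by their values, and the number of arrays that show each direction.

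In both tissues 32 probes changed the same way, 0.137% of those tested: 19 rose (0.0812%) and 13 fell (0.0555%). The smallest adjusted p among the 32 was 0.369 in the colon and 0.365 in the liver by limma. They held 6 gene symbols. CELA2A (a pancreatic-type elastase) and F2R (the thrombin receptor PAR1) rose. TLR7 (an endosomal receptor for single-stranded RNA), MMP9 (a secreted protease that cuts denatured collagen), SCD5 (a stearoyl-CoA desaturase) and COL1A2 (a chain of type I collagen) fell. Of the 32 probes, 8 had a symbol, against 44.9% of all, 7 were described as unknown, against 15.97%, and their median log2 signal was 6.598, against 8.115. The values of 13 of the 32 did not overlap between the diets in the colon, and of 12 in the liver, against 3.14% and 4.88% of all probes. The 32 were chosen by p and fold on these same arrays, which by itself raises the number without overlap. At 4 of the 32 they did not overlap in either tissue. Without colon RPS replicate 2, 74 probes changed the same way, 26 of the 32 among them, without liver RPS replicate 4 there were 57, and without colon CS replicate 4 there were 19. With normexp background correction 6 of the 32 passed and no other probe.

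F2R carries the signal of thrombin across the cell membrane. Its 2 probes share a stretch of 43 bases, shown in capitals because a match between them is partly a repeat of 1 measurement.
F2R probe A_72_P444051: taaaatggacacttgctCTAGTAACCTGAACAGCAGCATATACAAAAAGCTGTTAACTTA
F2R probe A_72_P180436: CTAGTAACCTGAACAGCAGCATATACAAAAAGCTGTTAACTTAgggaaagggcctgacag
At the first of these probes, normalised log2 signals of F2R were 7.35, 7.12, 8.93 and 6.80 in colon CS and 9.38, 8.50, 9.09 and 9.20 in colon RPS. In the liver they were 8.17, 7.87, 9.29 and 8.03 with CS and 8.95, 9.21, 8.90 and 9.23 with RPS. In the colon CS replicate 3 lay among the RPS arrays and in the liver above them, while in both tissues the other 3 CS arrays lay below all 4 RPS arrays. F2R was higher with RPS by 1.49 ± 0.44 (log2, SE, 4 against 4 arrays) in the colon, 2.81-fold with an unadjusted limma p of 0.00852, and by 0.74 ± 0.29 in the liver, 1.67-fold with an unadjusted limma p of 0.0309. The difference between the tissues was 0.75 with an unadjusted limma p of 0.198.

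CELA2A, a digestive protease, read 7.55, 7.21, 6.32 and 7.35 in colon CS and 8.10, 7.45, 7.73 and 8.15 in colon RPS. Liver signals of CELA2A were 7.14, 6.43, 8.27 and 7.35 with CS and 8.98, 8.83, 8.86 and 8.05 with RPS. The colon values overlapped by 1 array, and in the liver CS replicate 3 lay above RPS replicate 4. The effect was 0.75 ± 0.29 in the colon (unadjusted limma p of 0.0323) and 1.38 ± 0.37 in the liver (unadjusted limma p of 0.00459). A second probe of CELA2A gave 0.77 and 1.66. The probe that gave the larger liver effect has the following sequence, shown so that the target can be placed in the elastase family.
CELA2A probe A_72_P460241: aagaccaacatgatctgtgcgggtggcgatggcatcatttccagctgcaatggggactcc

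TLR7 fell in both tissues. Its signals were 8.01, 8.55, 9.41 and 7.03 in colon CS and 6.22, 7.73, 5.73 and 6.12 in colon RPS. In the liver they were 7.46, 7.35, 7.42 and 6.001 with CS and 5.62, 6.13, 5.63 and 6.11 with RPS, so that in each tissue CS replicate 4 was the lowest of the CS arrays. The effect was -1.80 ± 0.57 in the colon, a 3.48-fold drop with an unadjusted limma p of 0.0117, and -1.19 ± 0.33 in the liver, a 2.27-fold drop with an unadjusted limma p of 0.00546. The tissues differed by -0.62 with an unadjusted limma p of 0.391.

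MMP9 and COL1A2 both act in the extracellular matrix, as an enzyme that cuts it and as a fibre that builds it.
MMP9 probe A_72_P440951: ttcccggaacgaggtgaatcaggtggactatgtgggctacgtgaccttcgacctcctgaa
COL1A2 probe A_72_P107881: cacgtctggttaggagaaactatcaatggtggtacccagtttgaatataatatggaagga
MMP9 read 10.35, 10.17, 9.19 and 10.87 in colon CS and 7.83, 9.59, 9.39 and 7.93 in colon RPS. In the liver MMP9 read 6.16, 6.49, 7.34 and 7.00 with CS and 5.35, 5.36, 5.33 and 6.39 with RPS. CS replicate 3 lay below 2 RPS arrays in the colon, and RPS replicate 4 lay above CS replicate 1 in the liver. The effect of RPS on MMP9 was -1.46 ± 0.50 in the colon and -1.14 ± 0.32 in the liver (unadjusted limma p of 0.0177 and 0.00582). A second MMP9 probe gave -1.16 and -0.42, below the fold threshold in the liver.

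COL1A2 read 11.46, 11.35, 10.95 and 11.70 in colon CS and 10.59, 10.85, 10.96 and 10.05 in colon RPS, an overlap of 1 array on each side. In the liver COL1A2 read 10.63, 10.29, 10.36 and 9.79 with CS and 9.68, 9.34, 9.03 and 10.33 with RPS. It fell by 0.75 ± 0.25 on the log2 scale in the colon and by 0.67 ± 0.29 in the liver (unadjusted limma p of 0.0149 and 0.0426). A second probe of COL1A2 gave -0.28 and -0.77. SCD5, the last named gene of the 32, makes monounsaturated fatty acids. SCD5 read 5.42, 5.77, 6.58 and 5.91 in colon CS and 5.0, 5.93, 4.65 and 4.27 in colon RPS. In the liver SCD5 read 5.01, 5.07, 5.997 and 4.35 with CS and 4.14, 4.02, 3.64 and 4.98 with RPS. The effects were -0.96 ± 0.38 and -0.91 ± 0.37, with overlap of the diets in both tissues. A brighter probe of SCD5 gave -0.44 and -0.79, below the fold threshold in the colon.

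**Figure D2:**
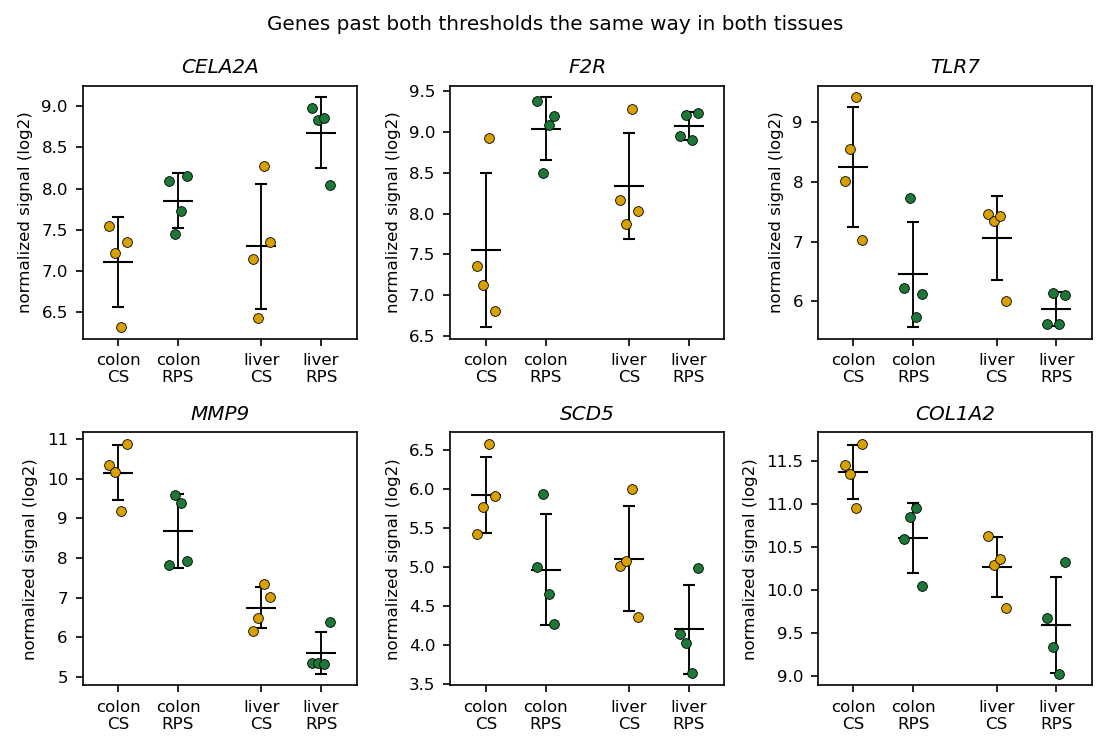
Normalised log2 signal of the 6 named genes that changed the same way in both tissues, with 1 point per array, a bar at the mean and whiskers of 1 SD over the 4 arrays of a group. The y axes do not start at 0. CELA2A and F2R are higher with RPS in both tissues and TLR7, MMP9, SCD5 and COL1A2 are lower, and in most panels 1 array of a group lies among or beyond those of the other diet.

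With the fold set aside, 4 further genes at an unadjusted p under 0.05 in both tissues were taken to fill the classes. TNFRSF12A, the receptor of the cytokine TWEAK, was higher by 0.68 in the colon and 0.56 in the liver. A brighter probe of TNFRSF12A gave 0.425 and 0.42, with unadjusted limma p-values of 0.253 and 0.291. CHIT1, the chitinase of activated macrophages, was higher by 0.72 and 0.53, and TYW3, an enzyme of transfer RNA modification, by 0.58 and 0.49. A brighter probe of TYW3 gave 0.44 and 0.64, with an unadjusted limma p of 0.0799 in the colon. SPARC, a collagen-binding matrix protein, was lower by -1.08 in the colon and -0.58 in the liver. SPARC has 7 probes, and all 7 were lower with RPS in both tissues, from -0.65 to -1.18 in the colon and from -0.15 to -0.70 in the liver.

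The other 24 of the 32 probes had no symbol, some with larger differences. A_72_P416738, described as similar to the apoptosis inhibitor BIRC7, was higher by 2.15 in the colon and 0.91 in the liver. A_72_P063896 was higher by 1.01 and 1.81, and A_72_P086596 by 1.17 and 1.33. A_72_P649854 and A_72_P496541, which read 1 cDNA clone of lymph node, were lower by -0.68 and -0.59 in the colon and by -1.10 and -1.005 in the liver.

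Opposite ways were taken by 6 probes, 0.0256% of those tested, 3 of them higher in the colon and lower in the liver (0.0128%) and 3 the reverse (0.0128%). The first 3 were all NPG4. GPNMB, RGS5 and a probe without a symbol, A_72_P572006, made up the others. In the colon 1.32% of probes rose and 0.897% fell, and in the liver 1.23% rose and 1.22% fell. Unrelated effects with those shares would give about as many opposed probes, so the count of 6 is not a result by itself. The diets overlapped in both tissues at all 6 probes. By their interaction, the colon effect minus the liver effect, the 6 had unadjusted limma p-values of 0.000968 to 0.00834, and the smallest adjusted p was 0.766. Without colon RPS replicate 2, 15 probes were opposed, 4 of the 6 among them, without colon RPS replicate 1 there were 13, and without liver CS replicate 1 or colon CS replicate 2 there were 3.

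NPG4 encodes a protegrin, 1 of the antimicrobial peptides of the porcine cathelicidin family that neutrophil precursors in bone marrow store in granules. Its 3 probes share a stretch of 42 bases, of which 30 are shown because they carry the common signal.
NPG4, shared by 3 probes: AAGGAGACCTAAGCATCTGCTTTGCCCAGG
At probe A_72_P576684 NPG4 read 7.02, 7.10, 7.71 and 7.04 in colon CS and 8.23, 8.41, 7.39 and 8.12 in colon RPS. In the liver NPG4 read 10.83, 9.47, 10.76 and 8.06 with CS and 6.94, 7.52, 8.98 and 7.85 with RPS, a spread of over 2 log2 units within either group. NPG4 was higher with RPS by 0.82 ± 0.26 in the colon and lower by -1.96 ± 0.65 in the liver, a 3.88-fold drop. The interaction was 2.775 ± 0.75 with an unadjusted limma p of 0.00214 and an adjusted p of 0.911. The other probes gave 1.02 and -2.06, and 1.06 and -2.01. Cathelicidin genes are near-identical over long stretches, so which member NPG4 probes read is uncertain. After the NPG4 values were seen, 3 other cathelicidins, each dim on at least 1 array, were looked up. PR39 gave 1.59 in the colon and -1.84 in the liver, where 3 of 4 RPS arrays were above background. PMAP-23 gave 1.49 in the colon, and in the liver it was above background on 3 of 4 CS arrays and 1 of 4 RPS arrays. PMAP-36 was above background on 8 arrays, and no difference is given for it.

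GPNMB is a membrane glycoprotein of macrophages and melanocytes. The longest exact stretch shared by its 2 responding probes is 32 bases, in capitals below. Before the capitals the first probe also matches the second, apart from the base next to them. The 2 probes thus largely repeat the same measurement.
GPNMB probe A_72_P668821: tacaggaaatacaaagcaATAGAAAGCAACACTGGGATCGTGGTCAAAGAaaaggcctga
GPNMB probe A_72_P177966: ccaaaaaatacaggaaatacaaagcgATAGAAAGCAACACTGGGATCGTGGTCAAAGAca
GPNMB read 8.11, 8.87, 7.66 and 8.07 in colon CS and 7.88, 7.35, 6.65 and 7.38 in colon RPS at the first of them. In the liver GPNMB read 6.54, 6.71, 6.69 and 6.78 with CS and 7.21, 6.70, 7.63 and 7.67 with RPS, with 3 of 4 RPS arrays above all CS arrays. The effects were -0.86 ± 0.32 and 0.63 ± 0.21, and the interaction was -1.49 ± 0.40 with an unadjusted limma p of 0.00215. The second probe gave -0.76 and 0.71. The other 2 probes of GPNMB did not show the opposition, with 0.18 and 0.01 at the first and 0.14 and 0.61 at the second.

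RGS5, a regulator of G protein signalling that marks pericytes, read 9.65, 9.24, 8.65 and 8.92 in colon CS and 8.22, 8.43, 8.84 and 8.61 in colon RPS. Liver signals of RGS5 were 7.51, 7.50, 7.46 and 7.87 with CS and 9.78, 9.23, 9.27 and 7.05 with RPS, so that 3 RPS arrays lay well above the CS arrays and replicate 4 lay below them. The effects were -0.59 ± 0.25 and 1.25 ± 0.51, and a second probe of RGS5 gave -0.39 and 1.19.

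HEY1, a transcriptional repressor downstream of Notch, had the clearest opposition in its arrays, though the colon effect stayed below the fold threshold. HEY1 read 8.09, 7.98, 7.76 and 8.07 in colon CS and 8.34, 8.41, 8.31 and 8.38 in colon RPS. In the liver HEY1 read 8.29, 8.10, 8.50 and 8.21 with CS and 7.51, 7.45, 7.71 and 7.46 with RPS. The diets did not overlap in either tissue, which was so, in opposite ways, at 13 probes in all (0.0555% of those tested), and in the same way at 22 (0.094%). The diets did not overlap at 3.14% of probes in the colon and 4.88% in the liver. Unrelated effects with those shares would give counts of this order. HEY1 had effects of 0.38 ± 0.14 in the colon and -0.74 ± 0.12 in the liver. Without colon CS replicate 3 and colon RPS replicate 2 its colon effect was 0.29, with an unadjusted limma p of 0.0722. The interaction of HEY1 was 1.12 ± 0.18, with an unadjusted limma p of 1.29e-05 and an adjusted p of 0.212, the smallest of all probes. A second probe of HEY1, which shares no stretch of 20 bases with the first, gave 0.60 and -0.56 with an unadjusted limma interaction p of 0.000133.

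**Figure D3:**
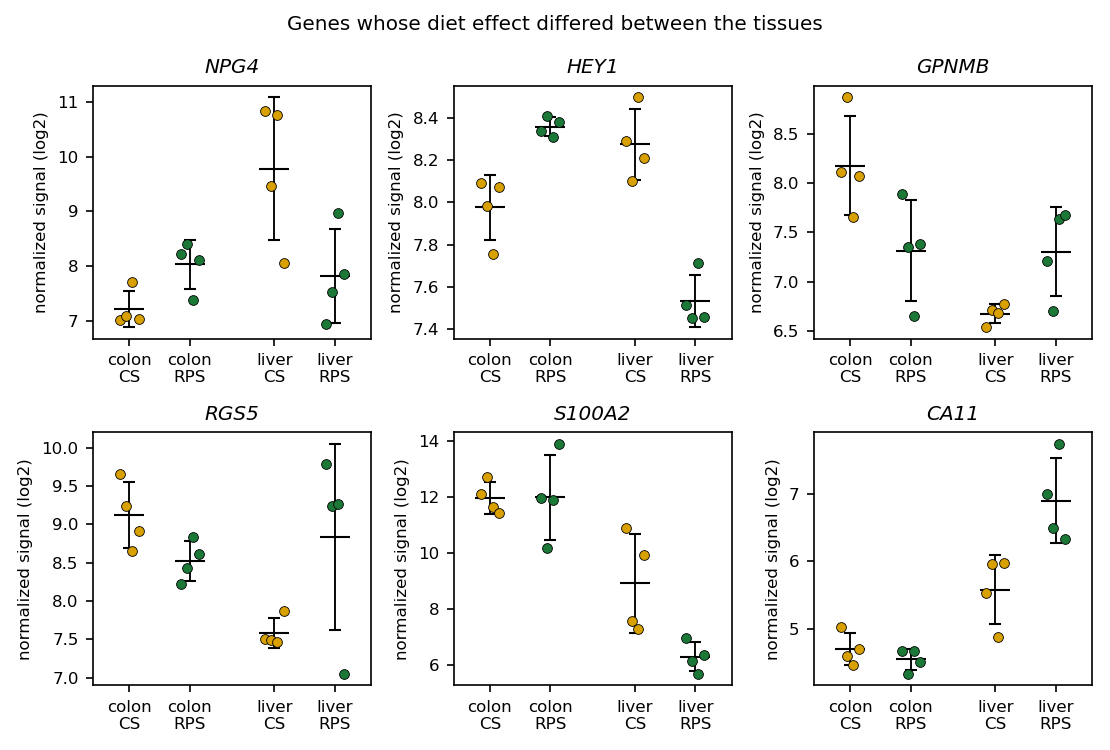
Normalised log2 signal of 6 genes whose diet effect differed between the tissues, with 1 point per array, a bar at the mean and whiskers of 1 SD over the 4 arrays of a group. The y axes do not start at 0. HEY1 separates the diets in both tissues and in opposite ways, NPG4, GPNMB and RGS5 are opposed with overlap, and S100A2 and CA11 separate the diets in the liver and not in the colon.

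The interaction passed both thresholds at 643 probes, 2.75% of those tested: 354 (1.51%) were higher in the colon relative to the liver and 289 (1.23%) lower. None had an adjusted p under 0.05 by limma, while 931 had an unadjusted p under 0.05 (3.98%). Without colon RPS replicate 2 the interaction passed both thresholds at 1478 probes. Apart from the opposed genes already described, the 10 genes with the largest differences in each direction are given. With normexp correction 15 of the 20 still passed both thresholds, and S100A2 (1.93), B3GNT7 (1.24), CPEB1 (0.49), FHL1 (-0.44) and RRAGD (-0.42) did not. Of 29 alternatives, SULT1A3 and B3GNT7 failed the thresholds in 11, CLEC18A and THBS1 in 8, S100A2 in 7 and TTC8 in 6. Most of these failures came from leaving out a single array. The other genes of the 20 failed in 1 to 3 of the 29. In most of the 10 genes higher in the colon, the liver effect was negative. S100A2, a calcium-binding protein of epithelia, read 12.10, 12.72, 11.63 and 11.42 in colon CS and 11.96, 10.19, 11.90 and 13.89 in colon RPS. In the liver S100A2 read 10.90, 7.55, 7.29 and 9.92 with CS and 6.96, 6.15, 5.69 and 6.36 with RPS, below every CS array. Its effects were 0.02 and -2.63, and 0.00 and -2.53 at a second probe that shares 49 bases with the first.

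B3GNT7, a glycosyltransferase that extends sugar chains, differed by 0.96 in the colon and -0.77 in the liver, and its liver groups did not overlap. FAT1, a large cadherin, behaved alike with 0.79 and -0.65. ANXA13, an annexin of intestinal epithelium, gave 0.81 and -1.06. ADRA2B, an adrenergic receptor, gave 1.30 and -0.91, CLEC18A, a lectin, gave 0.18 and -2.29, and PRKCE, a protein kinase C, gave 1.21 and -0.40. THBS1, a matrix glycoprotein that binds platelets and cells, gave 0.57 and -0.88, and all 6 of its probes were higher in the colon and lower in the liver, with an unadjusted limma interaction p under 0.05 at 3 of them, 2 of which share 57 bases.

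HFE2 and CPEB1 had liver effects close to 0. HFE2, or hemojuvelin, a co-receptor that sets hepcidin in the liver, read 5.42, 4.63, 4.62 and 4.46 in colon CS and 6.15, 5.81, 6.71 and 6.93 in colon RPS. In the liver HFE2 lay between 13.28 and 13.83 on all 8 arrays, and the effects were 1.62 and 0.00 with an unadjusted limma interaction p of 0.000344 (interaction 0.65 after normexp). The other probes of HFE2 were above background on only 10 and 8 arrays. They gave 0.31 and 0.38 in the colon and 0.06 and -0.41 in the liver, so they did not repeat a colon rise of that size. CPEB1, which binds the tails of messenger RNAs, gave 1.47 and -0.14 with an unadjusted limma interaction p of 0.000397, and its colon groups did not overlap.

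In the other direction, 6 of the 10 genes rose in the liver and had a smaller effect in the colon. SLC26A6, an anion exchanger, read 7.54, 7.42, 6.67 and 7.29 in liver CS and 8.33, 8.03, 9.15 and 8.27 in liver RPS, an effect of 1.22 against -0.33 in the colon. CA11, a carbonic anhydrase relative, read 5.53, 5.96, 4.87 and 5.97 in liver CS and 7.01, 6.5, 7.74 and 6.34 in liver RPS, an effect of 1.32 against -0.15. RTN2, a reticulon of the endoplasmic reticulum, gave 1.35 in the liver and -0.11 in the colon, but 0.19 and -0.04 at a second probe. SFXN3, a mitochondrial amino acid carrier, gave 1.57 and 0.10, and 1.235 and -0.30 at a second probe. At the named probes the liver groups of SLC26A6, CA11, RTN2 and SFXN3 did not overlap. SULT1A3, a sulfotransferase for phenols and catecholamines, gave 1.35 in the liver and -0.45 in the colon, and TTC8, a cilium protein, gave 0.98 and -0.27. The other probes of TTC8 were brighter and gave 0.97 and 0.67 in the liver and 0.02 and 0.05 in the colon. Their unadjusted limma interaction p-values were 0.0721 and 0.2015.

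FHL1, PGA5 and RRAGD were lower with RPS in the colon. FHL1, a muscle LIM protein, gave -1.49 in the colon and -0.03 in the liver. All 15 of its measured probes were lower in the colon, from -0.20 to -1.645, but the interaction had an unadjusted limma p under 0.05 at 2 of them, and the brightest gave -0.60 and -0.17. PGA5, a pepsinogen, gave -1.01 and 0.20, which a second probe did not repeat, at 0.10 and -0.02. RRAGD, a GTPase that signals amino acids to mTORC1, gave -0.97 and 0.35. The named probes of PGA5 and RRAGD had no overlap in the colon. MCOLN3, a lysosomal ion channel, gave -1.25 and 0.74.

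**Figure D4:**
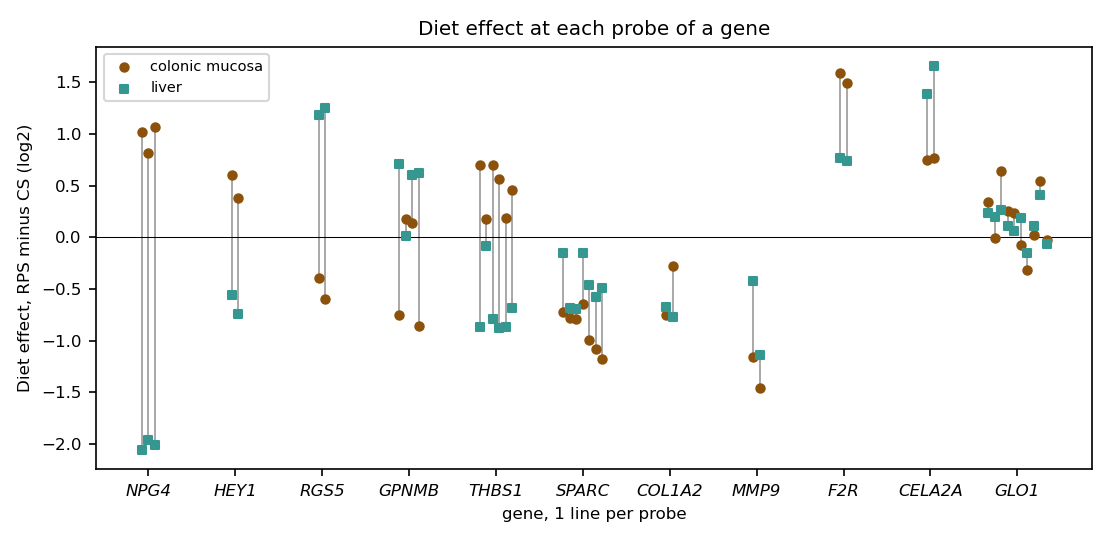
Diet effect at each probe of 11 genes, RPS minus CS on the log2 scale, with a brown circle for the colonic mucosa and a green square for the liver, joined by a line for each probe. The 3 probes of NPG4, the 6 of THBS1 and the 2 of HEY1 and RGS5 point in opposite ways between the tissues at every probe, all 7 of SPARC are lower in both, and 2 of the 4 probes of GPNMB and most of the 10 of GLO1 do not repeat the named probe.

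The mean of the 2 tissue effects was tested in a fit over all 16 arrays, which asks for a shift common to both tissues and can be carried by 1 of them. It passed both thresholds at 334 probes, 1.43% of those tested (164 higher, 0.7%, and 170 lower, 0.726%), and 1654 probes had an unadjusted p under 0.05 (7.06%). By limma 6 probes had an adjusted p under 0.05, all 6 higher with RPS, and 5 of them have no symbol. With 1 array left out the number was 1 (without liver RPS replicate 1) to 71 (without colon RPS replicate 2). Bases 16 to 45 of those 5 are shown, to identify what each reads.
A_72_P379423: tagaacaaaatcttagtatgaaagggaggc
A_72_P070951: ctggctttcttcatggaaaaaatcttgctg
A_72_P153356: ggcctagacaagcccagtgctttgatcaga
A_72_P173801: caaatcatctttgcaagagagcacgcacct
A_72_P045196: tggttttggggccgaataaatgtgttggac
A_72_P379423 read 10.45, 10.24, 9.90 and 10.22 in colon CS and 11.63, 11.94, 12.05 and 12.55 in colon RPS. In the liver A_72_P379423 read 9.94, 9.26, 9.44 and 9.62 with CS and 10.19, 10.08, 10.15 and 10.18 with RPS, so the diets did not overlap in either tissue. The effects were 1.84 and 0.58, the mean 1.21, and the adjusted limma p 0.00523. A_72_P070951, described as similar to a sortilin-related receptor, gave 1.66 in the colon, 0.41 in the liver and an adjusted limma p of 0.0154. A_72_P153356 was the most even of the 5, with 0.91 and 0.86 and an adjusted limma p of 0.0225. In A_72_P173801 and A_72_P045196 the mean was carried by the colon, with 1.62 and 1.74 there and 0.17 and 0.26 in the liver.

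SLC2A4RG, a transcription factor named for the glucose transporter gene it binds, was the only one with a symbol. Its signals were 3.23, 3.46, 3.62 and 3.80 in colon CS and 4.75, 4.76, 4.40 and 4.64 in colon RPS. In the liver SLC2A4RG read 4.38, 4.65, 4.75 and 4.63 with CS and 5.24, 4.92, 4.79 and 5.03 with RPS, without overlap in either tissue. Its effects were 1.11 and 0.39 and its adjusted limma p was 0.0225, and its mean effect was 0.75, which came down to 0.17 when the scanner's spot and background brightness were corrected by normexp. The next genes by p did not pass the adjustment. Among them OSBP2, an oxysterol-binding protein, had a mean effect of 0.89, RSPH14, a cilium protein, 0.77, and AQP5, a water channel, 0.68. APH1A, a subunit of gamma-secretase, had 0.48, and GLO1, which detoxifies methylglyoxal, 0.48. The larger part lay in the colon for OSBP2 (1.58 against 0.20 in the liver), RSPH14 (1.30 against 0.23) and AQP5 (0.99 against 0.37). It was more even for APH1A (0.44 and 0.52) and GLO1 (0.55 and 0.41). A second probe of RSPH14 went the other way, with -0.25 in the colon and -0.72 in the liver, and the 2 brighter probes of APH1A gave 0.33 and 0.17 in the colon and 0.08 and 0.00 in the liver. With normexp correction the mean effect was 0.25 for OSBP2, 0.36 for AQP5 and 0.57 for RSPH14, and none of the 3 passed both thresholds. AXL, a receptor for apoptotic cells, had -0.68, SMARCA1, a chromatin remodeller, -0.71, and SERPING1, the inhibitor of complement C1, -0.60. With normexp correction AXL came to -0.51 and SERPING1 to -0.57, and neither passed both thresholds. SERPING1 no longer passed under 10 of 29 alternatives. The effects in colon and liver were -1.12 and -0.25 for AXL, -0.53 and -0.90 for SMARCA1, and -1.03 and -0.16 for SERPING1.

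The 2 colon arrays with low epithelial signal, chosen after seeing the data, bore on these counts. Without colon CS replicate 3 and colon RPS replicate 2, 87 probes had an adjusted p under 0.05 for the mean effect, 61 higher and 26 lower, with the larger part in the colon. The median size of their effect was 1.02 in the colon and 0.41 in the liver, and the fold was above 1.5 at 82 of the 87 in the colon and at 20 in the liver. F2R, TLR7 and MMP9 were among the 24 symbols of the 87. At F2R and MMP9, colon CS replicate 3 was the CS array that lay among the RPS values. For the interaction 5 probes then passed, CPEB1, MASP1, SERPINA1, FAT1 and A_72_P329448, of which MASP1, SERPINA1 and the last are named after their values were seen. Without both arrays the interaction of CLEC18A was 2.36 with an unadjusted limma p of 0.0629 and the mean effect of AQP5 was 0.58, so that neither passed both thresholds.

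Genes of known function were then read in lists, at 1 probe per gene, beside the medians over all 5044 genes of 0.02 in the colon and -0.01 in the liver. By the same rule, 2.14% of the 5044 genes changed in the colon (1.21% rose and 0.932% fell) and 2.4% in the liver (1.09% rose and 1.31% fell). The interaction passed at 2.66%, lower in the colon at 1.09%, and the mean effect at 1.35%, lower at 0.813%.

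Genes of the extracellular matrix were lower in both tissues. The median effect over 23 genes was -0.35 in the colon and -0.35 in the liver, and 18 of 23 had the same sign in both. In the colon 5 fell and none rose, in the liver 2 fell and none rose, and by the mean effect 4 fell. COL6A3, a chain of the microfibrillar type VI collagen, gave -0.92 ± 0.30 in the colon and -0.55 ± 0.33 in the liver. At its brightest probe SPARC gave -0.79 and -0.70. TIMP2, an inhibitor of matrix proteases, fell in the colon alone, with -0.95 against 0.04 and an unadjusted limma interaction p of 0.00724, and FBN1, or fibrillin, gave -0.80 and -0.01. THBS1 went the other way in the colon, as given above. Whichever array was left out, the matrix genes kept a median of -0.57 to -0.26 in the colon and of -0.38 to -0.22 in the liver. The mean log2 level of 9 smooth muscle genes was 11.48 to 11.74 in colon CS and 11.17 to 11.32 in colon RPS, and 10.93 to 11.32 and 10.56 to 11.33 in the liver. The part of smooth muscle in the matrix genes was not tested.

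Smooth muscle genes themselves had a median of -0.37 in the colon and -0.15 in the liver. In the interaction 3 of the 9 were lower in the colon: TPM2, a tropomyosin, with -0.86 against -0.15, FLNA, an actin cross-linker, with -0.90 against -0.14, and ACTA2, smooth muscle actin, with -0.56 against 0.33.

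Genes of cholesterol synthesis and uptake were mostly higher in both tissues. Their medians were 0.22 in the colon and 0.18 in the liver, and 17 of 21 genes had the same sign, but 1 gene passed the thresholds in the liver and none in the colon. SC5D, a desaturase late in the pathway, gave 0.44 ± 0.27 in the colon and 0.88 ± 0.19 in the liver, where it rose with an unadjusted limma p of 0.00138. STARD4, a cholesterol carrier, gave 0.62 and 0.49. Without colon CS replicate 3 the colon median came down to 0.01.

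Of 26 interferon-stimulated genes, which block the growth of viruses, none passed the thresholds in either tissue. All 26 had a higher mean with RPS in the liver and 12 of 26 in the colon, with medians of 0.74 and -0.11, and the difference between the tissues was not tested for the list. OAS1, a sensor of double-stranded RNA, gave 1.48 ± 1.34 in the liver and -0.27 ± 1.00 in the colon. The mean log2 level of the list was 9.69, 9.35, 9.81 and 9.26 in liver CS and 9.22 and 9.30 in replicates 1 and 2 of liver RPS, which did not stand above the CS arrays. Replicates 3 and 4 of liver RPS did, with 11.73 at replicate 3. In the colon it was 10.42 to 10.74 with CS and 11.59, 10.10, 10.27 and 10.02 with RPS, where replicate 1 was high. Without liver RPS replicate 3 the liver median was 0.26, and without colon RPS replicate 2 the colon median was 0.16. CXCL9, a T cell chemokine, gave 1.69 ± 1.16 in the liver and -0.91 ± 0.68 in the colon, and in the interaction 1 gene of the list, STAT2, passed the thresholds with -0.69 and an unadjusted limma p of 0.0241.

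Of 17 genes of T and B cells, none had a value higher with RPS in the colon and 13 had one in the liver, with medians of -0.57 and 0.17. By the thresholds 1 gene fell in the colon and none changed in the liver, and the difference between the lists was not tested. The gene that fell was CD4, the co-receptor of helper T cells, with -0.998 ± 0.30 in the colon, 0.07 ± 0.19 in the liver and an unadjusted limma interaction p of 0.0115. NKG7, a granule protein of killer cells, gave -0.81 and 0.14, and MS4A1, or CD20 of B cells, gave -1.64 ± 1.46 and 0.09 ± 0.29. The mean level of the list overlapped between the diets, at 9.89 to 10.67 in colon CS and 8.70 to 10.38 in colon RPS, and the colon median was -0.18 without colon RPS replicate 4 and the liver median 0.01 without liver RPS replicate 4. Antigen presentation genes had medians of -0.33, or -0.084 without colon RPS replicate 4, and -0.05. CD74, the invariant chain of class II molecules, gave -1.01 and -0.46, and SLA-DRB1 and SLA-DQB1, porcine class II chains, gave -0.86 and -0.64 in the colon and -0.59 and -0.53 in the liver.

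Complement and coagulation genes changed mostly in the colon. Of 30 genes, 6 fell and 1 rose there, while 1 rose and none fell in the liver, and 5 were lower in the colon by the interaction. C1QC and C1QB, subunits of the first complement component made by macrophages, gave -1.38 and -1.35 in the colon and -0.21 and -0.19 in the liver. SERPING1 gave -1.03 against -0.16, with an unadjusted limma interaction p of 0.0046, and F3, or tissue factor, -0.66 against 0.25. The other probes of SERPING1 gave -1.045 against -0.10, and -0.50 against -0.19. Their unadjusted limma interaction p-values were 0.00319 and 0.253. The gene that rose in both tissues was F2R. The mean level of 11 macrophage and neutrophil genes was 9.81 to 10.16 in colon CS and 9.74 to 10.10 in colon RPS, and 10.77 to 11.01 and 10.71 to 10.82 in the liver, and its part in the complement genes was not tested. TYROBP, an adaptor of myeloid receptors, gave -0.61 in the colon and -0.09 in the liver. Lysosomal hydrolases had medians of -0.26 and -0.13, and 3 of 24 were lower in the colon by the interaction: CTSD, a cathepsin, with -1.10 against 0.10, CTSZ, another, with -0.94 against 0.13, and DNASE2, an acid nuclease, with -0.92 against 0.23.

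**Figure D5:**
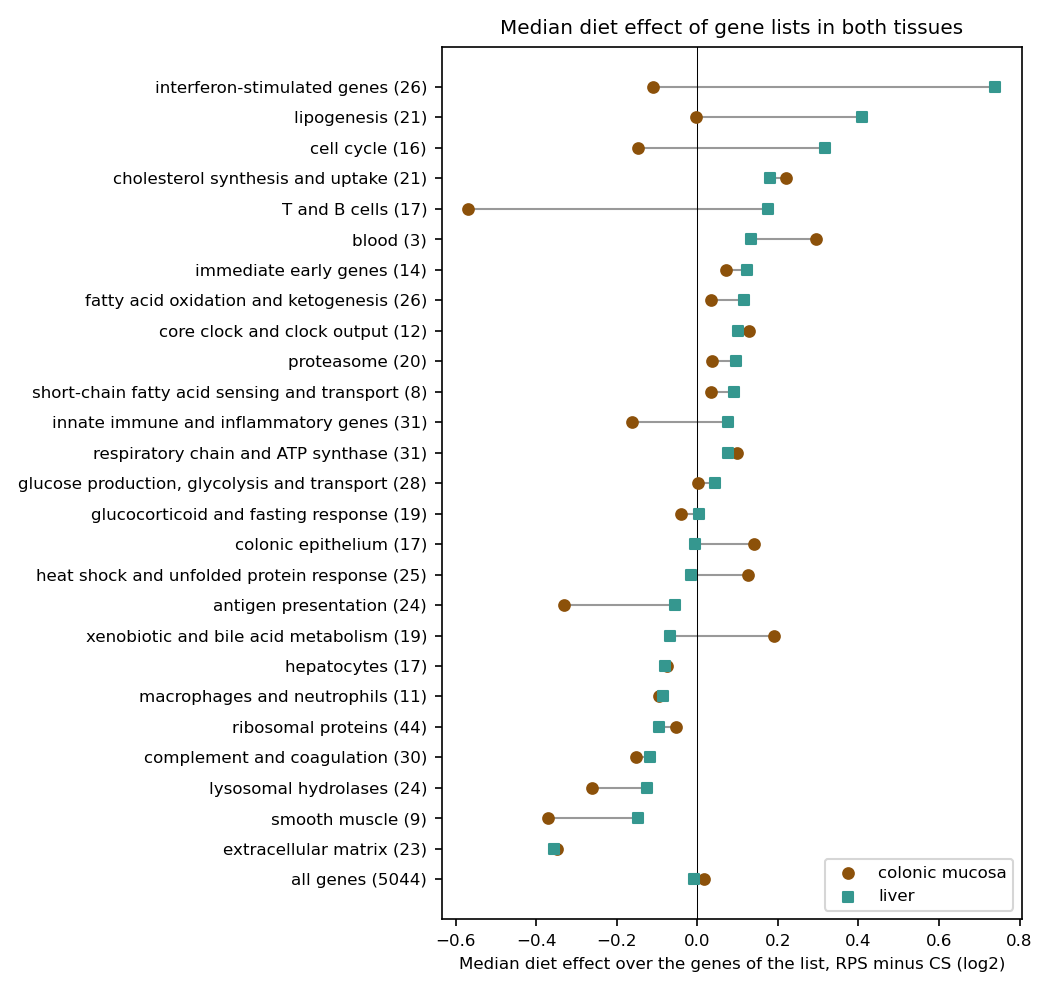
Median diet effect over the genes of each list, RPS minus CS on the log2 scale, with the number of genes in brackets, a brown circle for the colonic mucosa and a green square for the liver. Extracellular matrix genes lie at -0.35 in both tissues and cholesterol genes above 0 in both, whereas interferon-stimulated genes and T and B cell genes lie on opposite sides of 0, with few or no genes past the thresholds.

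Genes of lipid and fuel use were compared next. Lipogenic genes, which make fatty acids and triglycerides, had a median of 0.00 in the colon and 0.41 in the liver, where 19 of 21 were higher with RPS and none passed the thresholds. SCD, the main stearoyl-CoA desaturase, gave 1.37 ± 0.71 in the liver and 0.43 ± 0.53 in the colon, FASN, or fatty acid synthase, 1.15 ± 0.66 and -0.15 ± 0.43, and ACSS2, which activates acetate, 1.15 ± 0.59 and 0.02 ± 0.46. Fatty acid oxidation genes had medians of 0.03 and 0.12. CPT1A, which admits long-chain fatty acids to mitochondria, fell in the liver by 1.30 ± 0.35 on the log2 scale and gave -0.07 ± 0.32 in the colon, with an unadjusted limma interaction p of 0.0263. FABP1, the liver fatty acid-binding protein, gave 0.34 and 0.62, and ECI2, an isomerase of oxidation, 0.56 and 0.58.

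Among genes of the glucocorticoid and fasting response, C14H10orf10, known as a fasting-induced gene, was higher by 2.24 ± 0.62 in the colon and 1.37 ± 0.73 in the liver, and rose by the mean effect with an unadjusted limma p of 0.00315. SGK1, a kinase induced by glucocorticoids, rose in the liver, with 1.26 ± 0.26 against 0.11 ± 0.49 in the colon and an unadjusted limma interaction p of 0.0686. MT3, a metallothionein, fell in the liver, with -1.25 against -0.13, and PDK4, which blocks pyruvate oxidation, gave -1.38 ± 0.81 in the colon and -0.10 in the liver. The median of the 19 genes was -0.04 and 0.00.

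Of the immediate early genes EGR1 gave 0.57 in the colon and -0.61 in the liver, with an unadjusted limma interaction p of 0.0357, and the medians over 14 genes were 0.07 and 0.12. In the innate immune list the medians were -0.16 and 0.08, and IL1B2, a porcine interleukin-1 beta, rose in the colon with 1.12 ± 0.17 against 0.12 ± 0.24. NQO1, a quinone reductase, rose in the colon with 1.04 against -0.17. Cell cycle genes had medians of -0.15 (0.27 without colon CS replicate 3) and 0.32 with none past the thresholds, TOP2A giving -0.43 ± 0.53 and 0.92 ± 0.75. Core clock genes (0.13 and 0.10 over 12 genes), genes that sense or carry short-chain fatty acids (0.03 and 0.09 over 8) and the respiratory chain (0.10 and 0.08 over 31) had no gene past the thresholds in either tissue. Ribosomal protein genes had medians of -0.05 and -0.10, and the colon value turned to 0.18 under another scaling of the scanner signals.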

How the data were processed

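Total RNA from colonic mucosa and liver of pigs was measured on 16 one-colour Agilent arrays, 4 per tissue and diet. According to the study's methods, 1 pig per pen was sampled and 4 of the pigs of each group were taken at random. Per the file headers, the intensity of each spot and its mark for signal well above background were written by Agilent Feature Extraction 10.7. The authors deposited a table of log2 values, quantile normalized over the 16 arrays, which differed by at most 0.0386 from scanner signals normalized the same way here. These log2 values were used, for probes well above background on 16 arrays.

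RPS minus CS was fitted per tissue with limma 3.58.1 (lmFit, eBayes) in R 4.3.3, and the interaction and the mean effect over all 16 arrays. Adjustment was by Benjamini-Hochberg across the 23412 probes. Changed means an unadjusted p under 0.05 and a fold above 1.5. SE is limma's.

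Named genes were up to 12 symbols a direction with the largest smaller effect (filled to 5 by p alone), 10 a direction for the interaction, 10 by p for the mean effect, and up to 4 and 4 a list, by mean effect and interaction. The brightest probe of the class stood for a gene. The members, lists and rules were chosen with earlier results of these data known. Alternatives were other normalizations, background correction, filters, thresholds, tests, replicate blocks and leaving out arrays. The fits and the calls made from them were tested on simulated data. The number of arrays limits the precision. Probe positions in the genome were not used here. Values of some genes are not reported here.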

Additional observations from a re-analysis of the deposited data

Results flagged for a closer look

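Of 172 groups of 4 arrays among the named genes, 13 had an outermost array whose gap to its neighbour exceeded Dixon's 95% critical share of the range. Chance gives about 1 in 20 groups. Colon CS replicate 3 was the outermost array 4 times, high for NPG4 (7.71) and MCOLN3 (7.23) and low for FAT1 (6.51) and AQP5 (5.475), and colon RPS replicate 2 was high for SLC26A6 (7.80) and RTN2 (8.28). Both arrays were the lowest of their groups in epithelial genes, and the part of this in the 6 values was not tested. Liver RPS replicate 4 was low for CELA2A (8.05) and SULT1A3 (15.1) and high for MMP9 (6.39). Liver CS replicate 4 was low for TLR7 (6.001) and FHL1 (5.16) and high for RGS5 (7.87), and liver RPS replicate 1 was high for CHIT1 (5.86).

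The diet effect differed between the tissues, by an unadjusted interaction p under 0.05, for the opposed genes and the 20 interaction genes, and by limma none of these reached an adjusted p of 0.05. The 20 were chosen by that p, and the opposed genes by opposite effects in the 2 tissues. Their unadjusted p-values follow from that choice and are no separate evidence. As the colon effect minus the liver effect on the log2 scale, NPG4 differed by 2.775, HEY1 by 1.12, GPNMB by -1.49 and RGS5 by -1.84. Higher in the colon were S100A2 by 2.64, CLEC18A by 2.47, ADRA2B by 2.21, ANXA13 by 1.87, B3GNT7 by 1.73, HFE2 by 1.62, PRKCE by 1.61, CPEB1 by 1.61, THBS1 by 1.45 and FAT1 by 1.44. Higher in the liver were MCOLN3 at -1.99, SULT1A3 at -1.80, SLC26A6 at -1.55, CA11 at -1.47, SFXN3 at -1.465, RTN2 at -1.46, FHL1 at -1.46, RRAGD at -1.33, TTC8 at -1.25 and PGA5 at -1.21.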

How the results depend on the processing

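The correlation of the 2 effects kept its sign under all alternatives run, from 0.112 without a filter on dim probes to 0.173 in scanner signals normalized within each tissue, and 0.127 to 0.213 with 1 array left out. Counts are given in the order colon, liver, same way, opposite ways, interaction and mean effect, against 519, 575, 32, 6, 643 and 334. With normexp correction they were 161, 203, 6, 3, 259 and 85, and the colon split turned from 309 higher and 210 lower to 73 and 88. Without a filter on dim probes they were 1215, 1562, 65, 28, 1632 and 1092, and with probes above background in at least 1 group 844, 1154, 62, 17, 1091 and 713. With probes averaged by gene symbol, where fewer features are tested, they were 99, 120, 4, 1, 125 and 60. At a fold above 2 they were 116, 94, 5, 2, 195 and 34, and at an adjusted p under 0.05 they were 1, 0, 0, 0, 0 and 6. The methods' t-test gave 11 the same way and 3 opposite. Without both colon arrays low in epithelial genes, chosen after seeing the data, the counts were 1376, 575, 77, 11, 1411 and 601, with 24 of the 32 and all 6 opposed probes among them. With 1 array left out the ranges were 406 to 1431, 573 to 912, 19 to 74, 3 to 15, 601 to 1478 and 292 to 792, the highest being without colon RPS replicate 2 except in the liver, where it was without liver RPS replicate 4. The causes of these moves were not tested beyond what the alternatives themselves change.

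Replicate numbers did not establish a pairing of the tissues. Deviations of same-numbered arrays correlated at 0.159 to 0.330 in the CS groups, where each array was closest to its own number, and at -0.0718 to 0.0708 in the RPS groups, where none was. With the number as a fixed replicate block the counts were 482, 605, 27, 6, 678 and 342, with 18 of the 32 and 5 of the 6 among them, and 2 probes passed the adjustment for the mean effect, 1 of the 6. With the pig as a random block the interaction count was 737 and the mean count 313, at a consensus correlation of 0.0948. Of the values of single named genes under the alternatives, 1465 kept direction and side of the threshold, 229 lost the threshold, 16 gained it and 0 turned sign. An effect within a single tissue could not change when arrays of the other tissue were left out or the pig was a random block. Those cases count among the 1465. The genes were also chosen for their effects or p-values on these same arrays, so the tally is no test of them. Slide and diet cannot be told apart.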
